A study of Mus musculus with 15 samples.

Results

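The genes described here are the nuclear genes of mitochondrial oxidative phosphorylation, read on whole-transcript arrays from sorted B cells of germinal centres in mouse spleen. Members were the genes whose symbol begins with Nduf, Uqcr, Atp5 or Cox4 to Cox8, with Sdha, Sdhb, Sdhc, Sdhd and Cyc1, read from probe sets annotated to exactly 1 gene. The rule found 115 probe sets for 90 genes of the 19938 genes measured, and the probe set with the highest mean was kept for the 17 genes with more than 1. Of the 90 genes, 82 encode subunits: 34 of complex I, 4 of complex II, 9 of complex III, 18 of complex IV (Ndufa4 is counted there) and 17 of complex V. The other members are 7 assembly factors of complex I, Ndufaf1 to Ndufaf7, and Ndufa4l2, a paralogue of Ndufa4. The members were chosen by name and not by their values. The subunits encoded in mitochondrial DNA are not analysed here.

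Oxidative phosphorylation passes electrons from NADH through complex I, or from succinate through complex II, to complex III, cytochrome c and complex IV, which reduces oxygen. The proton gradient built on the way drives complex V, the ATP synthase. B cells of the germinal centre divide and mutate their receptors in the dark zone and are selected by antigen and T cell help in the light zone.

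The cells were SwHEL B cells, whose receptor binds hen egg lysozyme, carrying CD45.1 and transferred into C57BL/6J recipients carrying CD45.2, which were immunised with sheep red blood cells bearing the lysozyme mutant HEL3x. On day 10, donor cells that were CD45.1+, CD45.2-, IgG1+ and CD38 low were sorted by zone and by affinity, and all 4 groups share this transfer, immunisation and gate. There were 3 arrays of high-affinity light zone cells (Lzhi), 4 of low-affinity light zone cells (Lzlo), 4 of high-affinity dark zone cells (Dzhi) and 4 of low-affinity dark zone cells (Dzlo). The light zone gate was CD86 high and CXCR4 low, and the dark zone gate the opposite. Neither the animals' age nor the number of animals behind an array is stated in the labels, so p-values cover only how far these samples spread, which may be technical. The descriptions carry an experiment code, here A to D, treated as a batch. Experiments A, B and C hold all 4 groups, and experiment D holds Lzlo 3, Dzhi 4 and Dzlo 3. Code B is written in different forms for the light and the dark zone, and whether these are 1 experiment is not known.

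Values are log2 RMA values, on which 1 unit is a 2-fold difference and every probe set has its own scale. Over all genes, array medians lay between 5.67 and 5.86. Lower quartiles lay between 4.57 (Lzhi 1 and Lzlo 1) and 4.78 (Dzhi 1). Upper quartiles lay between 7.14 (Dzhi 1) and 7.46 (Dzlo 1), so the arrays differed in spread. The 8 of 10 germinal centre B cell markers that were measured averaged 10.1 to 10.2 in Lzhi, 10.1 to 10.4 in Lzlo, 10.2 to 10.4 in Dzhi and 10.3 to 10.4 in Dzlo. Cd86, used for the sort, was 1.04 ± 0.11 (SE) log2 units higher in the light than in the dark zone (limma adjusted p = 0.00255), and for Cxcr4 the difference was -0.69 ± 0.16 (limma adjusted p = 0.152). Neutrophil markers stood high on Lzlo 3, where the mean of 8 was 9.51, and on Dzlo 3, where it was 8.38, against 5.36 to 7.20 on the other arrays. In bulk samples, fewer cells of a type and less RNA per cell cannot be told apart.

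Promoters of these genes are shown first, because short motifs in them are shared by members of every complex. Nuclear respiratory factor 1 (NRF1), ETS factors such as GABP, and YY1 are known to act at promoters of respiratory genes. RefSeq promoters (GRCm38.p6, 250 bases before to 50 after the start of transcription) were matched for 73 of the 90 members, which have 78 promoters. The NRF1 motif, GCGCA then any base then GCGC, searched on both strands like the others, lay in 19 of the 78 promoters (24.4%), against 4.6% of all 32851 promoters and 6.38% of the 21263 promoters of protein-coding genes. The ETS motif CCGGAAG lay in 18 (23.1%), against 8.86% of all and 11.6% of protein-coding promoters. The YY1 motif AANATGGCG lay in 10 (12.8%), against 2.38% of all and 3.12% of protein-coding promoters. At least 1 of the 3 motifs lay in 41 (52.6%), against 14.2% of all and 18.8% of protein-coding promoters, and no member promoter had 2 overlapping motifs. By complex, a motif lay in 17 of 33 promoters of complex I, 3 of 3 of complex II, 3 of 5 of complex III, 3 of 13 of complex IV, 12 of 18 of complex V and 3 of 6 of the assembly factors. The YY1 motif was found in 7 promoters of complex I and 3 of complex V. A match describes these letters only and is no evidence of binding.

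**Figure D1:**
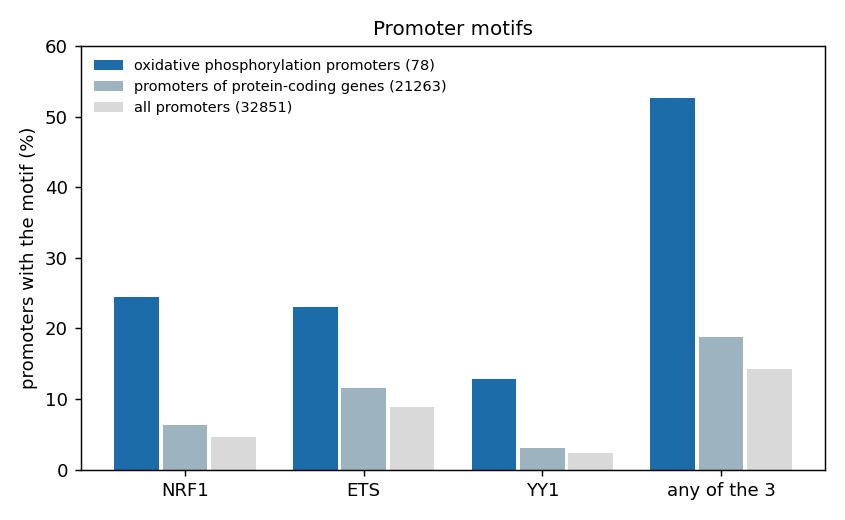
Share of promoters (%, y axis) that hold each motif on either strand, for the 78 promoters of oxidative phosphorylation genes (dark blue), the 21263 promoters of protein-coding genes (grey blue) and all 32851 promoters (light grey). The blue bar is the tallest of each group, at 24.4% for NRF1, 23.1% for ETS, 12.8% for YY1 and 52.6% for any of the 3.

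The promoters printed below belong to 5 of the 13 members whose value was lower in the light zone in every same-experiment pair described further on. Of the 13, 11 have a matched promoter and 5 of the 11 hold a motif, against 41 of all 78 member promoters (52.6%). The printed promoters are given 5′ to 3′ on the gene's own strand, and capitals mark the motif. Atp5k (subunit e of the ATP synthase) holds an NRF1 motif 50 bases before the start and an ETS motif whose first base is base 13 of the transcript. Atp5md (a small ATP synthase subunit) holds an ETS motif at base 3, Cox6b1 (a complex IV subunit) an ETS motif 28 bases before the start, Ndufs4 (an accessory complex I subunit) a YY1 motif at base 36, and Ndufs5 (another accessory complex I subunit) an NRF1 motif 98 bases before the start.
Atp5k (chr5:108434350-108434649, minus strand): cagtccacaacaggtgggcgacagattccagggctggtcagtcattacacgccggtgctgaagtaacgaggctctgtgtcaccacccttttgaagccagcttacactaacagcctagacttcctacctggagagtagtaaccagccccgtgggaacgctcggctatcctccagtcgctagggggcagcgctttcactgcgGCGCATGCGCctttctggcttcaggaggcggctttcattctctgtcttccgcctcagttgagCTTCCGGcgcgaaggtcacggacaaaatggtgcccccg
Atp5md (chr19:47090598-47090897, minus strand): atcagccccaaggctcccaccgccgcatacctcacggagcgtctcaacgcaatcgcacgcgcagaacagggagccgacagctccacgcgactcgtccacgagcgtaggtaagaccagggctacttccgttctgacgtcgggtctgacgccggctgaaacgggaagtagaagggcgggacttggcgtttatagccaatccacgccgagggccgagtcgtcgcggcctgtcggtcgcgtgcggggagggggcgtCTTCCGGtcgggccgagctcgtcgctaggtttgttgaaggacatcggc
Cox6b1 (chr7:30626065-30626364, minus strand): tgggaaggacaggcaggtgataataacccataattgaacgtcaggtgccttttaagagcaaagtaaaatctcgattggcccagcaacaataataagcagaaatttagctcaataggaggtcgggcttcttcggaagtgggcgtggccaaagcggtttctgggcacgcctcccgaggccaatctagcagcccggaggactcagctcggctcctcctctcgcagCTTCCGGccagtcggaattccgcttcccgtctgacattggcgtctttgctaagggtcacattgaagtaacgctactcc
Ndufs4 (chr13:114388045-114388344, minus strand): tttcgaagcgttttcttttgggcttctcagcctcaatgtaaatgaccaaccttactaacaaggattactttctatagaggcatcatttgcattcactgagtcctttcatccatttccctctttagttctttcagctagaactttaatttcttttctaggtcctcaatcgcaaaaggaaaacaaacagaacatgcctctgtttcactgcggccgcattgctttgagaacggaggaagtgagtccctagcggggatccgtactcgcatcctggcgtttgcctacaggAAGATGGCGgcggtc
Ndufs5 (chr4:123718137-123718436, minus strand): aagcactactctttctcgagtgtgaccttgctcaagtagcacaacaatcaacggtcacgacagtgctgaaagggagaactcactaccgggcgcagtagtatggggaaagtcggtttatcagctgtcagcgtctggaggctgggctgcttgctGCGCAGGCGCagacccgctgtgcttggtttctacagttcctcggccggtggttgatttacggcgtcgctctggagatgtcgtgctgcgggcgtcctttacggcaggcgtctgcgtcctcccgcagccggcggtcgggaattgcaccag

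No member passed the test in any comparison. With limma and Benjamini-Hochberg adjustment over all 19938 genes, the lowest adjusted p of a member was 1.0 between the zones, 1.0 for affinity in the light zone and 1.0 for affinity in the dark zone. Over all genes, 31 passed between the zones (0.155%), 0 passed for affinity in the light zone (0.0%) and 0 in the dark zone (0.0%). At an unadjusted p under 0.05, 1 member was past the threshold between the zones (4.38% of all genes were), 4 for affinity in the light zone (4.0% of all genes) and 0 in the dark zone (1.6% of all genes). The interaction of zone and affinity had 0 members past the adjusted threshold (0.0% of all genes) and 2 past the unadjusted one (1.33% of all genes). With 1 array left out at a time, the unadjusted count between the zones ranged from 0 (without Dzhi 1, 2 or 3, Dzlo 1 or 4, Lzhi 1 or 2, or Lzlo 1 or 2) to 5 (without Dzhi 4). For light zone affinity it ranged from 1 (without Lzhi 4) to 8 (without Dzhi 4), and for dark zone affinity from 0 to 2 (without Dzhi 4). Without Dzhi 4, 879 of all 19938 genes were past it between the zones, 781 for light zone affinity and 354 for dark zone affinity. Without Lzhi 4, 672 of all genes were past it for light zone affinity.

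The 95% intervals bound how far these genes could differ. The median half-width over the 90 members was 0.33 log2 units for the zones, 0.49 for affinity in the light zone and 0.45 in the dark zone. For the zones, the whole interval lay within 1 log2 unit of 0 for 88 members, all but Ndufaf2 and Ndufaf4, and within 0.5 for 58. For affinity it lay within 1 log2 unit for 71 members in the light zone and 81 in the dark zone, and within 0.5 for 25 and 34 members. The narrowest were those of Uqcrh, the hinge protein of complex III, from -0.13 to 0.14 for the zones and from -0.22 to 0.18 for affinity in the light zone. The within-group SD had a median of 0.31 over the members, against 0.24 over all genes. It was 0.34 for complex I, 0.29 for II, 0.39 for III, 0.22 for IV, 0.18 for V and 0.71 for the assembly factors. Many genes of this pathway have processed pseudogenes, and whether probes also matched those was not tested.

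Individual arrays moved these genes together. Taking each gene's deviation from its own mean over the 15 arrays, the 90 members averaged -0.06, 0.13 and 0.12 on Lzhi 1, 2 and 4, and -0.11, -0.15, -0.17 and -0.03 on Lzlo 1 to 4. They averaged 0.04, 0.22, 0.28 and -0.37 on Dzhi 1 to 4, and 0.14, -0.13, -0.10 and 0.18 on Dzlo 1 to 4. The groups overlapped, and the widest spread was within Dzhi, where Dzhi 4 was the lowest of all 15 arrays. Of the 90 members, 74 had their lowest Dzhi value on Dzhi 4 (82.2%), against 27.9% of all genes. On Dzhi 4 complex I stood at -0.53, II at -0.32, III at -0.44, IV at -0.12 and V at -0.32. Mitochondrial ribosomal proteins stood at -0.43 there, mitochondrial import genes at -0.39, glycolysis genes at -0.35 and cytosolic ribosomal proteins at -0.18. For the comparisons it touches, the members' median is also given without this array. In these comparisons, medians by complex and differences of single genes in the fit include it.

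**Figure D2:**
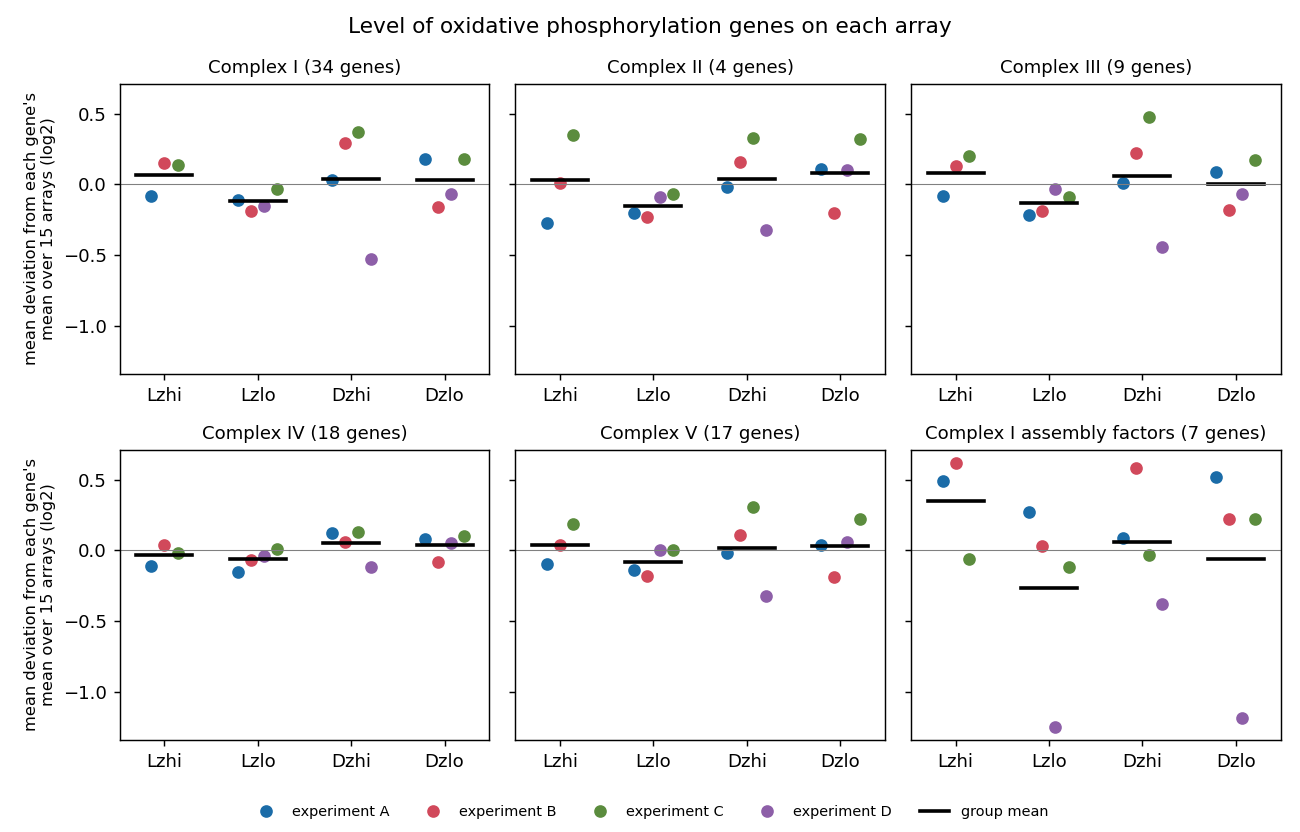
Mean deviation (log2, y axis) of the genes of each complex from their own means over 15 arrays, for each array of Lzhi, Lzlo, Dzhi and Dzlo (x axis). Colours give the experiment code and black lines the group means; the lowest Dzhi point of complexes I to V is Dzhi 4, and the assembly factors are lowest on Lzlo 3 (-1.25) and Dzlo 3 (-1.19).

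Between the zones the members were slightly lower in the light zone on balance. The median log2 difference, light minus dark, was -0.06 over the 90 members, with 67 below 0 (74.4%), against a median of -0.0054 over all genes with 52.0% below 0. Medians were -0.07 for complex I (25 of 34 below 0), -0.11 for II (4 of 4), -0.06 for III (6 of 9), -0.07 for IV (14 of 18), -0.04 for V (13 of 17) and -0.03 for the assembly factors (4 of 7). Without Dzhi 4 the median was -0.13 with 82 of 90 below 0, and without Dzhi 3 it was -0.02 with 52 below 0. In low-affinity cells alone (Lzlo minus Dzlo) the median was -0.15 with 78 of 90 below 0 (51.4% of all genes). In high-affinity cells alone (Lzhi minus Dzhi) it was 0.01 with 43 below 0 (51.2% of all genes). That median was -0.12 with 74 below 0 without Dzhi 4, 0.11 with 68 above 0 without Dzhi 3, 0.07 without Lzhi 1 and 0.06 without Dzhi 2, so its direction turned with the array left out. In low-affinity cells 0 members passed (0.01% of all genes did), and 2 were past the unadjusted threshold (3.53% of all genes), namely Cox7a2 and Atp5pb. That count was 0 without Dzlo 1 or Dzlo 4, 1 without Lzlo 2 or Lzlo 4 and 5 without Dzlo 3. Without Dzlo 3, 943 of all 19938 genes were past that threshold. Cox7a2 and Ndufb10 were the 2 members with every Lzlo array below every Dzlo array (0.918% of all genes). In high-affinity cells 0 members passed (0.015% of all genes did), and 2 were past the unadjusted threshold (2.8% of all genes), namely Cox6b2 and Ndufaf6. Every Lzhi array was above every Dzhi array for Ndufab1 and Ndufaf4 (1.84% of all genes) and below for Cox6b2 and Uqcrc2 (1.85% of all genes).

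Markers of other cells and of the cell cycle also differed between the zones, and their part in the members' differences was not tested. In low-affinity cells (Lzlo minus Dzlo), 38 of 39 genes of a G2/M and mitosis list were below 0 (median -0.65), whereas 7 of 8 neutrophil markers (median 0.65), 5 of 6 T cell markers (median 0.51) and 6 of 6 myeloid markers (median 0.35) were above 0. Of 6 plasma cell markers 4 were below 0 (median -0.12), as were 3 of 5 NK cell markers (median -0.03). The neutrophil marker mean was 5.50 to 9.51 in Lzlo and 5.61 to 8.38 in Dzlo, and that of the T cell markers 5.01 to 7.33 in Lzlo and 5.08 to 5.96 in Dzlo. In high-affinity cells (Lzhi minus Dzhi), 23 of the 39 G2/M genes (median -0.10), 8 of 8 neutrophil (median -0.56), 6 of 6 T cell (median -0.11), 4 of 6 myeloid (median -0.14) and 5 of 6 plasma cell markers (median -0.32) were below 0. In limma, 0 of the G2/M genes passed in low-affinity cells, and 18 were lower at an unadjusted p under 0.05.

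In all 7 pairs of arrays with the same experiment code the members' median was below 0. The pairs of experiment B count as such only with the written forms of code B merged, and whether these are 1 experiment is not known. Experiment D holds no Lzhi array, so Dzhi 4, the lowest array for these genes, is in none of the 7 pairs. In the fit, the Lzhi minus Dzhi median was 0.01 with Dzhi 4 and -0.12 without it. The members' median difference was -0.12 in experiment A, -0.08 in B and -0.15 in C for Lzhi minus Dzhi. For Lzlo minus Dzlo it was -0.25 in A, -0.01 in B, -0.20 in C and -0.08 in D. Medians over all genes in these 7 pairs lay between -0.06 (Lzhi 1 minus Dzhi 1) and 0.08 (Lzhi 4 minus Dzhi 3). In experiment B the low-affinity median was near 0, with 48 members below 0 and 40 above. Of the 90 members, 13 were lower in the light zone in all 7 pairs (14.4%), against 1.81% of all genes, and 0 were higher in all 7 (2.06% of all genes). The 13 were Ndufa1, Ndufb10, Ndufs4, Ndufs5 and Ndufv2 of complex I, Uqcrc2 of complex III, Cox6b1, Cox7a2, Cox7a2l and Cox7b of complex IV, and Atp5a1, Atp5k and Atp5md of complex V. With the experiment code as a replicate block, the median was -0.08 with 71 of 90 below 0 (49.4% of all genes), and 10 members were lower at an unadjusted p under 0.05 (11.1%, against 3.04% of all genes). Of the members 0 passed adjustment in that fit (0.451% of all genes did).

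**Figure D3:**
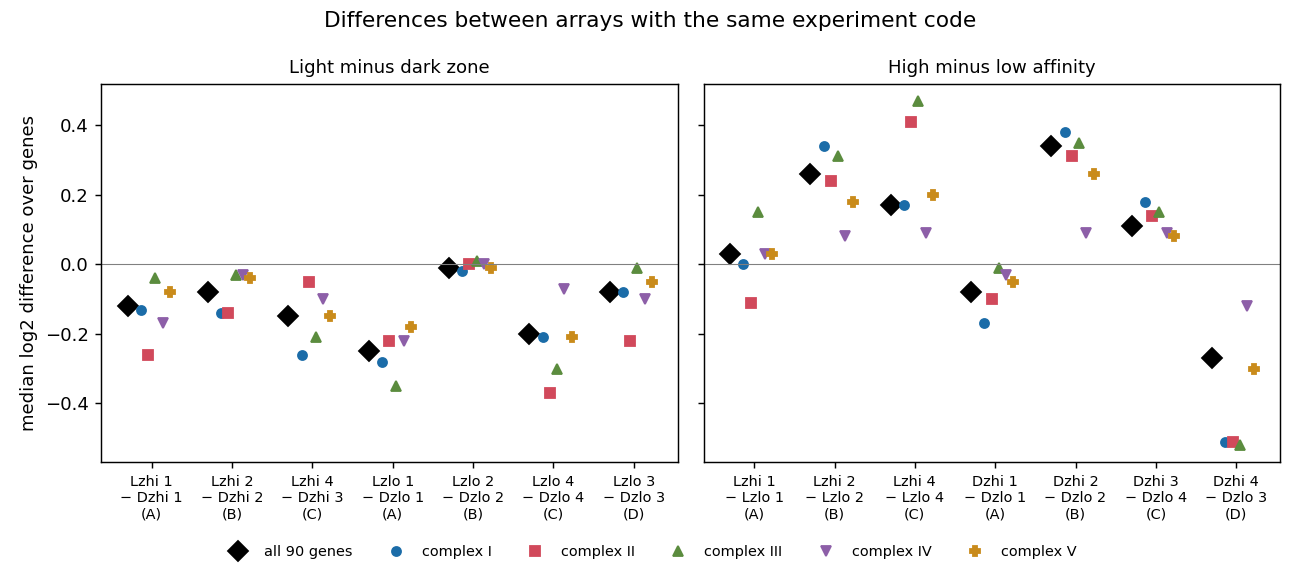
Median log2 difference (y axis) over all 90 genes (black diamonds) and over each complex, for pairs of arrays with the same experiment code, given in brackets (x axis). Written forms of code B were merged. The black diamonds of the 7 light minus dark zone pairs lie between -0.25 and -0.01; those of high minus low affinity lie between 0.03 and 0.26 in the light zone and between -0.27 and 0.34 in the dark zone.

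Ndufs5 had the largest difference below 0 between the zones among complex I members. It read 9.19, 9.50 and 9.31 in Lzhi and 9.27, 8.83, 8.62 and 9.60 in Lzlo, against 9.39, 9.94, 10.18 and 8.89 in Dzhi and 9.98, 9.30, 8.82 and 10.05 in Dzlo. The zones overlapped, since Dzhi 4 and Dzlo 3 were as low as most light zone arrays. The difference was -0.36 ± 0.23 (SE; 95% interval -0.86 to 0.14; limma adjusted p = 1.0). Within pairs, none of which holds Dzhi 4, it was lower in the light zone in 7 of 7, by values from -0.87 to -0.20. The fit with the experiment block gave -0.47 ± 0.14 (limma adjusted p = 0.34), the lowest adjusted p of any member in any fit.

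Ndufs4, whose loss causes complex I deficiency in mice and humans, read 11.19, 11.30 and 10.81 in Lzhi and 11.08, 11.12, 10.25 and 10.73 in Lzlo, against 11.25, 11.35, 11.11 and 10.89 in Dzhi and 11.27, 11.22, 10.66 and 11.10 in Dzlo. Light and dark zone ranges overlapped, with the lowest value of Lzlo and of Dzlo on the arrays of experiment D. The difference was -0.16 ± 0.15 (limma adjusted p = 1.0), and -0.23 ± 0.08 with the experiment block (limma adjusted p = 0.426). Among the catalytic core subunits, Ndufv1, which binds NADH, differed by -0.11 ± 0.28 and Ndufs1, which carries iron-sulphur clusters, by -0.04 ± 0.25.

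All members of complex II had a zone difference below 0. Sdhb, the iron-sulphur subunit, differed by -0.21 ± 0.17, Sdha, the flavoprotein, by -0.11 ± 0.12, Sdhd by -0.11 ± 0.18 and Sdhc by -0.05 ± 0.12, the last pair being the membrane anchors. None of these passed (limma adjusted p = 1.0 each). In complex III, Uqcrc2, a core protein, differed by -0.20 ± 0.13, whereas Cyc1, which is cytochrome c1, differed by -0.06 ± 0.22 and Uqcrfs1, the Rieske protein, by 0.00 ± 0.19.

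Cox7a2, the widely expressed form of subunit 7a of complex IV, was the member past the unadjusted threshold between the zones. It read 10.71, 10.84 and 11.21 in Lzhi and 10.59, 10.45, 10.62 and 10.46 in Lzlo, against 11.01, 11.09, 11.29 and 10.75 in Dzhi and 10.85, 10.65, 11.06 and 10.89 in Dzlo. All Lzlo values lay below all Dzlo values, and Lzhi overlapped Dzhi. The difference was -0.22 ± 0.10 over both affinities (unadjusted p = 0.0473, limma adjusted p = 1.0) and -0.33 ± 0.14 in low-affinity cells (limma adjusted p = 1.0). Cox7a1, the muscle form, differed by -0.17 ± 0.32 and Cox7a2l, known for its part in respiratory supercomplexes, by -0.17 ± 0.11.

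Cox6b2, known as the testis form of subunit 6b, read 6.03, 6.11 and 5.88 in Lzhi and 5.77, 6.45, 6.79 and 6.91 in Lzlo, against 6.63, 6.53, 7.04 and 6.55 in Dzhi and 6.48, 6.15, 6.42 and 6.80 in Dzlo. Every Lzhi array was below every Dzhi array, while Lzlo and Dzlo overlapped. The difference was -0.68 ± 0.24 in high-affinity cells (unadjusted p = 0.0125, limma adjusted p = 0.999) and 0.02 ± 0.22 in low-affinity cells. Cox6b1, the common form, differed by -0.15 ± 0.08 over both affinities. In complex V, Atp5k differed by -0.18 ± 0.10 and Atp5a1, the alpha subunit, by -0.17 ± 0.17, whereas Atp5b, the beta subunit, differed by -0.05 ± 0.09 and Atp5c1, the gamma subunit, by 0.00 ± 0.09. For the core subunits Cox4i1, Cox5a and Cox5b of complex IV the zone differences were -0.02 ± 0.11, 0.06 ± 0.11 and 0.00 ± 0.08.

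Within the light zone, the members were on balance higher in high-affinity than in low-affinity cells. The median Lzhi minus Lzlo difference was 0.13, with 74 of 90 above 0 (82.2%), against a median of -0.0003 over all genes with 49.9% above 0. Medians were 0.15 for complex I (28 of 34 above 0), 0.19 for II (3 of 4), 0.28 for III (7 of 9), 0.04 for IV (14 of 18), 0.12 for V (15 of 17) and 0.53 for the assembly factors (7 of 7). Every Lzhi array lay above every Lzlo array for 11 members (12.2%), against 2.26% of all genes, and below for 0 (2.29% of all genes). Within experiments the median was 0.03 in A, 0.26 in B and 0.17 in C. The median over all genes in the same pairs was -0.01 in B, 0.1 in C and between these in A. Members above 0 numbered 50 of 90 in A, 83 in B and 61 in C, against 48.7%, 47.2% and 61.6% of all genes. In all 3 pairs 35 members were higher (38.9%, against 15.7% of all genes) and 3 lower, namely Cox7a2l, Ndufb7 and Uqcrh (3.33%, against 12% of all genes). This comparison shares its arrays with the zone comparison. Leaving out 1 array at a time, the median stayed between 0.11 and 0.20 and the number above 0 between 59 (without Lzhi 4) and 78 (without Lzhi 1). Quantile normalization of the deposited values gave 0.07 with 62 of 90 above 0.

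**Figure D4:**
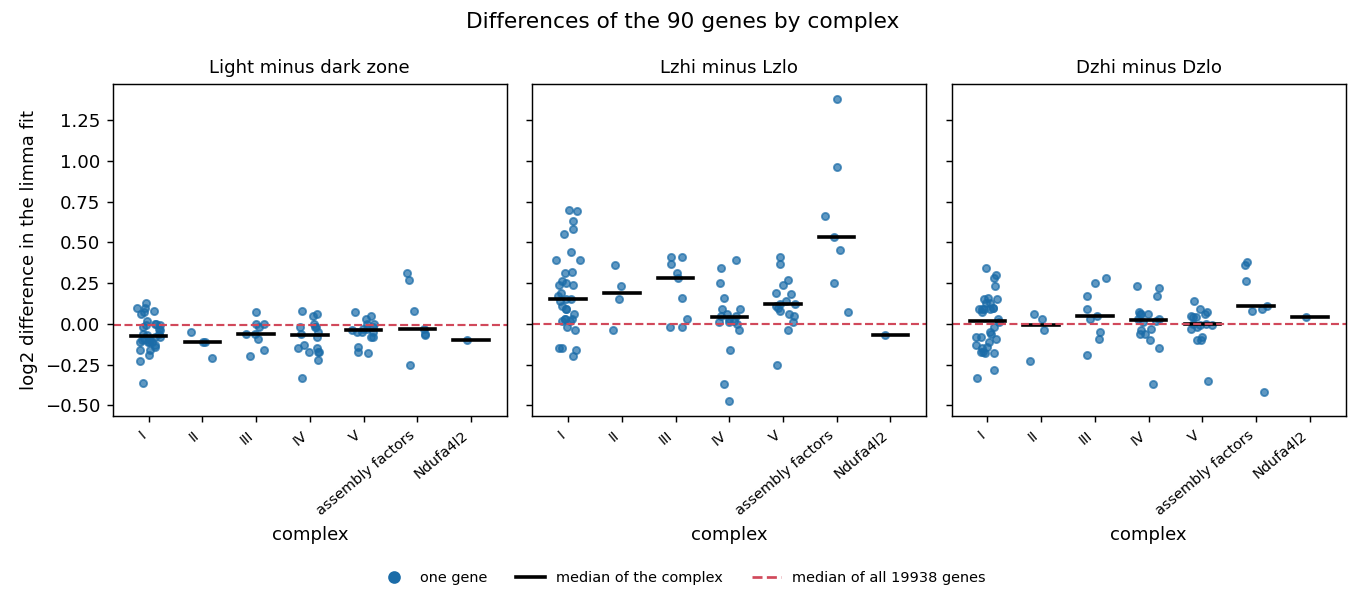
Log2 difference in the limma fit (y axis) for each of the 90 genes (points) by complex (x axis), for light minus dark zone, Lzhi minus Lzlo and Dzhi minus Dzlo. Black lines are medians of a complex and the red dashed line that of all 19938 genes; the medians of complexes I to V lie between -0.11 and -0.04 for the zones, 0.04 and 0.28 for Lzhi minus Lzlo, and 0.00 and 0.05 for Dzhi minus Dzlo.

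Other lists differed between Lzhi and Lzlo too, and their part in the members' shift was not tested. All 39 genes of a G2/M and mitosis list were above 0, with a median of 0.69 and 0 passing the test. The list's mean deviation was 0.21, 0.40 and -0.08 on Lzhi 1, 2 and 4 and -0.38, -0.05, -1.37 and -0.38 on Lzlo 1 to 4. Of 8 neutrophil markers 7 were below 0 (median -1.28), as were 6 of 6 T cell markers (median -0.89), 6 of 6 myeloid markers (median -0.51) and 5 of 5 NK cell markers (median -0.18). Plasma cell markers went the other way, with 6 of 6 above 0 for affinity in the light zone (median 0.16, Jchain at 0.87 ± 0.43) and 6 of 6 in the dark zone (median 0.36). The mean of the T cell markers was 4.86 to 5.39 in Lzhi and 5.01 to 7.33 in Lzlo, and that of the neutrophil markers was 5.36 to 7.07 in Lzhi and 5.50 to 9.51 in Lzlo. Both were highest on Lzlo 3. On Lzlo 4 the T cell mean was 6.67 and the myeloid mean 6.04, against 4.91 to 5.53 for myeloid markers in Lzhi. The neutrophil mean on Lzlo 4 was 7.04, within the Lzhi range. Without Lzlo 3 the members' median was 0.13 with 76 of 90 above 0. That fit keeps Lzlo 4, so the part of other cells was not tested by it.

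Ndufaf6, a complex I assembly factor, had the lowest unadjusted p. It read 6.19, 6.16 and 7.29 in Lzhi, against 5.65, 5.24, 5.65 and 5.82 in Lzlo, with no overlap and 1 Lzhi array well above the other two. The difference was 0.96 ± 0.26 (95% interval 0.39 to 1.52; unadjusted p = 0.0027, limma adjusted p = 1.0). Ndufaf4, which takes part in the same assembly, read 8.88, 8.61 and 8.46 in Lzhi, against 8.14, 8.12, 5.22 and 7.61 in Lzlo. The groups did not overlap and Lzlo 3 stood far below the rest. Its difference was 1.38 ± 0.75, with an interval from -0.24 to 3.00. The assembly factors as a group stood at -1.25 on Lzlo 3 and -1.19 on Dzlo 3, both of experiment D, against -0.38 to 0.62 on the other arrays. Those are the arrays with the highest neutrophil markers, and the part of those cells was not tested.

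Ndufab1, the mitochondrial acyl carrier protein and a subunit of complex I, read 8.99, 9.02 and 9.45 in Lzhi, against 8.57, 8.45, 7.92 and 8.93 in Lzlo. The groups did not overlap, with Lzlo 4 just below Lzhi 1. The difference was 0.69 ± 0.23 (95% interval 0.19 to 1.18; unadjusted p = 0.00981, limma adjusted p = 1.0). Ndufb3, an accessory subunit, had a difference of 0.70 ± 0.41 and Ndufs1 one of 0.63 ± 0.37. The members of complex I with the largest differences below 0 were Ndufa7 at -0.20 ± 0.36 and Ndufv1 at -0.16 ± 0.42.

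In complex II, Sdha read 10.53, 10.54 and 10.57 in Lzhi, against 10.43, 10.42, 9.95 and 10.45 in Lzlo. The groups did not overlap, with Lzlo 3 farthest below the rest, and the difference was 0.23 ± 0.18. Sdhd had the largest difference of the 4, at 0.36 ± 0.27, and Sdhc lay at -0.04 ± 0.17. In complex III, Uqcrfs1 and Uqcr10 both had 0.41, with SE of 0.28 and 0.20. Cyc1 was at -0.02 ± 0.32.

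In complex IV, Cox7a2 differed by 0.39 ± 0.15 (95% interval 0.07 to 0.71; unadjusted p = 0.0211, limma adjusted p = 1.0), with all Lzhi arrays above all Lzlo arrays in the values given above. Cox6b2 was at -0.47 ± 0.24, and Cox7a1 was at -0.37 ± 0.48. Cox6c was among the most tightly bounded, at 0.05 with an interval from -0.16 to 0.26. In complex V, Atp5pb, subunit b of the peripheral stalk, read 11.02, 11.16 and 11.25 in Lzhi, against 11.01, 10.89, 10.26 and 10.92 in Lzlo. The lowest Lzhi and the highest Lzlo values were nearly equal, and Lzlo 3 stood far below. The difference was 0.37 ± 0.16 (unadjusted p = 0.0332, limma adjusted p = 1.0). Atp5g1, a gene of the membrane ring's subunit c, was at 0.41 ± 0.43, and Atp5d, of the central stalk, at -0.25 ± 0.56.

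**Figure D5:**
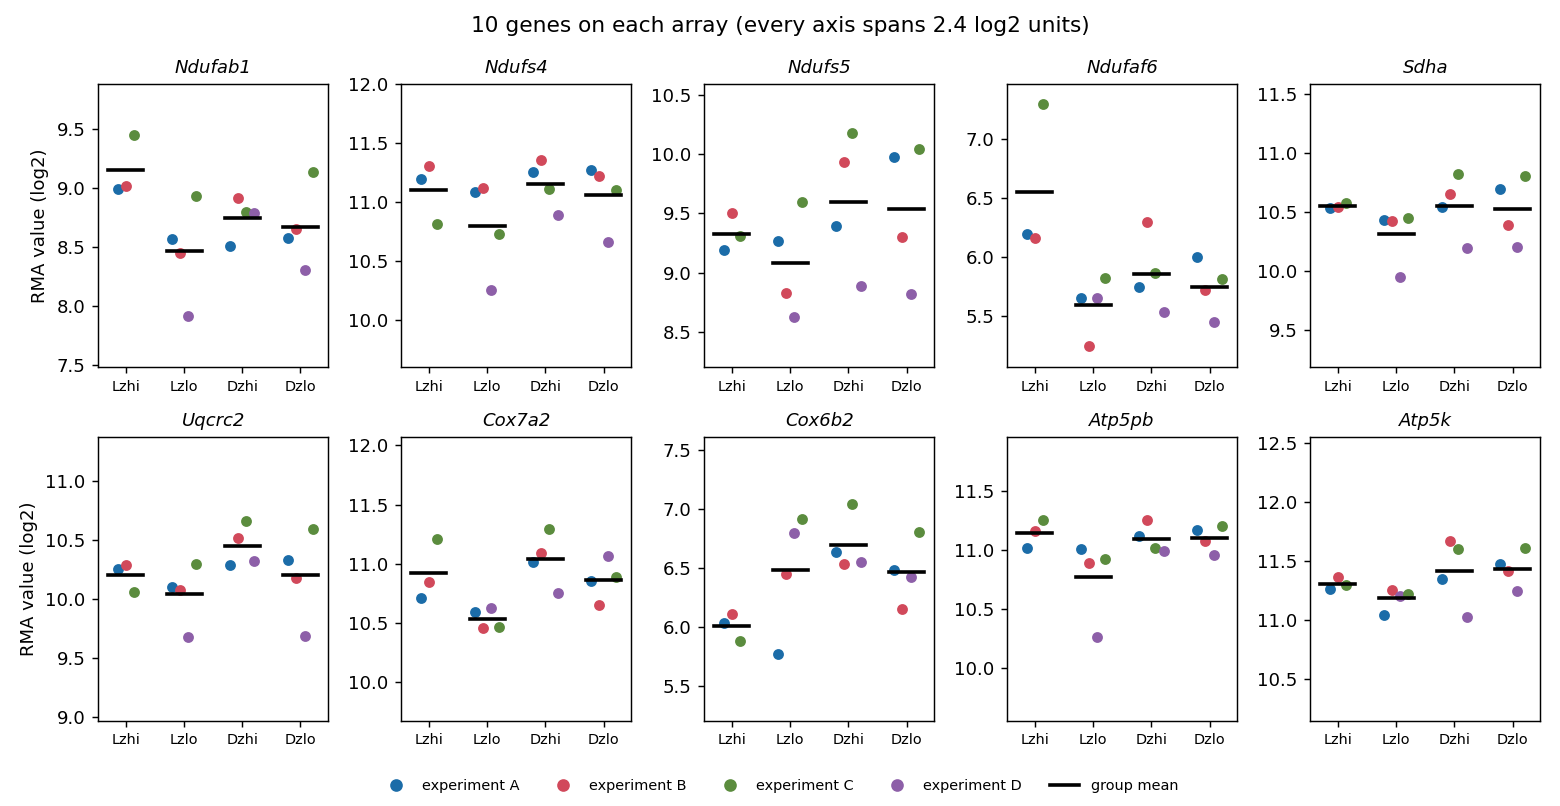
RMA values (log2, y axis, each spanning 2.4 units) of 10 genes on each array of Lzhi, Lzlo, Dzhi and Dzlo (x axis), coloured by experiment code, with group means as black lines. Lzhi lies above Lzlo without overlap for Ndufab1, Ndufaf6, Sdha, Cox7a2, Atp5pb and Atp5k, while Ndufs4, Ndufs5, Uqcrc2 and Cox6b2 overlap.

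In the dark zone the members' affinity differences lay on either side of 0. The median Dzhi minus Dzlo difference was 0.03 with 52 of 90 above 0 (57.8%), against 50.4% of all genes. Medians were 0.02 for complex I, 0.00 for II, 0.05 for III, 0.03 for IV, 0.00 for V and 0.11 for the assembly factors. Dzhi and Dzlo arrays overlapped for all 90 members; of all genes, 0.632% had every Dzhi array above every Dzlo array and 0.476% below. Within experiments the median was -0.08 in A, 0.34 in B, 0.11 in C and -0.27 in D, so the sign differed between experiments. Without Dzhi 4 it was 0.14 with 77 above 0, and without Dzhi 3 it was -0.05 with 32 above 0. It was also below 0 without Dzhi 2 (-0.03), Dzlo 2 (-0.02) or Dzlo 3 (-0.01). Ndufa10 of complex I had the largest subunit difference above 0, 0.34 ± 0.17 (unadjusted p = 0.0675, limma adjusted p = 1.0), and Cox7a1 the largest below 0, -0.37 ± 0.44.

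The light zone and dark zone affinity differences were compared by the interaction of the fit. Its median over the members was 0.15 with 73 of 90 above 0 (49.7% of all genes). It was 0.01 without Dzhi 4 and 0.08 with quantile normalization of the deposited values. Ndufaf6 at 0.84 ± 0.36 (unadjusted p = 0.0333) and Cox6b2 at -0.70 ± 0.32 (unadjusted p = 0.0489) were past the unadjusted threshold, with a limma adjusted p of 1.0 for both. No member was past it without Dzhi 4, Dzhi 1, Dzlo 1, Lzhi 4 or Lzlo 2, each left out alone. In these fits 234 to 324 of all 19938 genes were past it. The whole interval lay within 1 log2 unit for 57 members, and for 33 it reached beyond.

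Genes that serve the same complexes were read from lists drawn up by function. Mitochondrial ribosomal proteins, which make the subunits encoded in the organelle, had a light zone affinity median of 0.26 with 63 of 77 above 0, and a zone median of -0.04. Those with the lowest p in that comparison were Mrpl32 at 0.80 ± 0.24 and Mrps28 at 0.69 ± 0.24, and differences in the list ran from -0.50 to 1.31. Protein import genes had a light zone affinity median of 0.17 with 20 of 24 above 0, Timm9 at 0.90 ± 0.31 and Timm17a at 0.62 ± 0.20 among them. In both lists 0 genes passed for light zone affinity, and 49.9% of all genes were above 0 in that comparison. Assembly factors outside the naming rule had 0.05 with 21 of 38 above 0, and genes of coenzyme Q synthesis with cytochrome c had -0.02 with 7 of 15. The TCA cycle and pyruvate dehydrogenase genes had a zone median of -0.09 with 16 of 18 below 0. Fh1, fumarase, was at -0.36 ± 0.11 (limma adjusted p = 0.514) and Idh2 at -0.59 ± 0.21 (limma adjusted p = 0.732). Glycolysis genes had a zone median of 0.05 with 13 of 18 above 0, and Aldoc, an aldolase, passed at 1.36 ± 0.17 (limma adjusted p = 0.00476). For cytosolic ribosomal proteins the zone median and the light zone affinity median were both 0.00.

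The regulators of mitochondrial biogenesis had a zone median of 0.03 over 21 genes, and 0 passed. Myc, which is known to raise mitochondrial gene expression, read 9.09, 8.88 and 8.0 in Lzhi and 8.37, 8.19, 8.30 and 8.74 in Lzlo, against 7.33, 8.14, 8.55 and 7.74 in Dzhi and 7.81, 7.12, 7.73 and 8.04 in Dzlo. Light zone values ran from 8.0 to 9.09 and dark zone values from 7.12 to 8.55, so they overlapped, and the difference was 0.72 ± 0.21 (limma adjusted p = 0.422). Tfam, which packages and transcribes mitochondrial DNA, was at 0.74 ± 0.59 for light zone affinity, with 6.75 on Lzlo 3 and 6.83 on Dzlo 3 against 8.19 to 9.31 on the other arrays. Nrf1 read 7.56, 7.40 and 6.56 in Lzhi, against 7.45, 7.45, 7.52 and 7.45 in Lzlo, with 1 Lzhi array apart from the rest.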

How the data were processed

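Per the labels' protocols, amplified RNA of 15 sorted samples was labelled with biotin, and each sample has an array of its own. The deposited table holds the authors' log2 values from RMA, and genome build mm8 is named beside it, per the submitters' processing notes. RMA includes a quantile step over arrays, which acts on shifts shared by all genes. The values used here still differed between arrays, with upper quartiles from 7.14 on Dzhi 1 to 7.46 on Dzlo 1. RMA also compresses differences of dim probe sets. The software version is not given in the sources used here, and the table has no detection calls.

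Of 28853 probe sets, 21789 had 1 gene in the platform annotation, 1621 several and 5443 none; only the first were used, which left 19938 genes with no filter on dim genes. Another 6 probe sets that list a member together with other genes were left out. The highest correlation between arrays was 0.993, and no array was treated as a repeat. All columns of the table were used. Limma 3.58.1 in R 4.3.3 (lmFit, eBayes) fitted 4 group means with 11 residual degrees of freedom. Benjamini-Hochberg adjustment ran over all genes of a comparison, with a threshold of 0.05. The fit was tested on simulated data. Differences are light minus dark zone and high minus low affinity; ± is the standard error. The number of arrays limits the precision. Lists are described by counts and medians without a test. Figures were drawn with matplotlib 3.10.9.

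The members, lists and tests were chosen with earlier results of these data known. Named genes were those that passed, the largest differences above and below 0 in each complex, a set of core subunits, isoform pairs and regulators, up to 2 genes per direction of other lists, and genes with an outlying array. Of these, 50 are members. The 13 members lower in every zone pair, the promoters printed and members named for an unadjusted p or for groups that did not overlap were chosen after their values were seen. Some genes of the lists are not analysed here.

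Arrays of different groups with the same experiment code deviated together over all genes, with correlations that averaged 0.288 over 21 pairs and exceeded 0.1 in 16. The mean was -0.082 over 63 pairs with different codes and 0.227 over 21 pairs with the same title number.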

Additional observations from a re-analysis of the deposited data

Results flagged for a closer look

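Within groups of 4 arrays, 171 checks on single genes for 1 array far from the others gave 10 such values. Chance alone gives about 1 in 20, and 10 of 171 is near that share. Of the 10 values, 7 lay on the 2 low-affinity arrays of experiment D and all 7 were low. On Lzlo 3, Atp5pb read 10.26 (10.89 to 11.01 on the other Lzlo arrays), Cox7b read 10.42 (11.16 to 11.31), Sdha read 9.95 (10.42 to 10.45) and Uqcrb read 9.10 (10.18 to 10.30). On Dzlo 3, Atp5mpl read 11.61 (11.97 to 12.02 on the other Dzlo arrays), Cox7b read 10.58 (11.45 to 11.55) and Ndufa5 read 9.20 (10.37 to 10.47). These arrays also had the highest neutrophil markers, and the part of those cells was not tested. Elsewhere, Ndufb10 was low on Lzlo 4 at 10.13 (10.51 to 10.55), Cox6a1 was high on Dzhi 3 at 12.42 (11.93 to 11.99), and Cox7a1, the muscle form, was high on Dzlo 1 at 8.15 (7.29 to 7.36).

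Another 114 checks asked whether pairs of arrays with the same experiment code moved opposite ways in high-affinity and in low-affinity cells. They flagged 1 gene, Ndufab1, which is below the share of about 1 in 20 given above for chance alone. The mean light minus dark zone difference of Ndufab1 was 0.41 over the high-affinity pairs, all above 0. It was -0.20 over the low-affinity pairs, all below 0, a gap of 0.62. The low-affinity pair of experiment A was at -0.01. The interaction of the fit gave 0.60 ± 0.31 for Ndufab1 (limma adjusted p = 1.0), so the gap did not pass a test.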

How the results depend on the processing

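Each comparison was refitted under 28 alternatives (other normalizations, filters, probe set rules, variance models, array weights, blocks, and arrays left out), and 0 members passed adjustment in each of them, in every comparison. The lowest adjusted p of any member was 0.34, for Ndufs5 between the zones with the replicate block by experiment code. Leaving out 1 array at a time, the members' median ranged from -0.13 to -0.02 for the zones, from -0.12 (without Dzhi 4) to 0.11 (without Dzhi 3) in high-affinity cells and from -0.17 to -0.09 in low-affinity cells. It ranged from 0.11 to 0.20 for affinity in the light zone, from -0.05 (without Dzhi 3) to 0.14 (without Dzhi 4) in the dark zone, and from 0.01 to 0.23 for the interaction. Without experiment D the medians were -0.13 for the zones, 0.13 for light zone affinity and 0.10 for dark zone affinity. The replicate block by experiment code gave -0.08 for the zones and 0.09 for light zone affinity, and that by title number -0.04 and 0.16. Over all genes the zone calls numbered 90 with the first block and 83 with the second, against 31 without a block. The first block merges the written forms of code B. With the code as written, the zone calls numbered 35, and the members' medians were -0.09 for the zones and 0.09 for light zone affinity. The labels state no block, and same-numbered or same-code arrays did not deviate together in every pair. The block is therefore given as an alternative only. Same-code arrays did deviate together on average, with a mean correlation of 0.288 against -0.082 for different codes. The standard errors and intervals of the main fit do not take this into account. No detection calls exist, so how far dim signal limits single members was not tested.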

Other observations

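Where a member had several probe sets, they mostly gave the same direction for affinity in the light zone. Of 25 other probe sets, 23 had the sign of the one kept, and 15 of 17 members had all probe sets on 1 side. The 5 others of Atp5l lay at 0.01 to 0.03, and those of opposite sign at -0.01 (Cox5b) and -0.00 (Cox6c). So near 0, the sign says little. Cox7b2 read 3.21 to 4.14, Cox8b 4.56 to 5.09, Cox8c 4.72 to 5.63, and Cox4i2, known from lung, 5.43 to 5.95 over the 15 arrays. Cox7a1 was lowest on arrays of experiment C in high-affinity cells of both zones, at 5.76 on Lzhi 4 and 6.33 on Dzhi 3. Ndufaf2, an assembly factor of complex I, had the largest within-group SD of the members, 1.38, with values from 6.94 on Lzlo 3 to 10.81 on Lzhi 2.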
